A study of Saccharomyces cerevisiae with 12 samples.

Results

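The right arm of chromosome II of budding yeast was followed gene by gene in 2 strains, with and without the citrus flavone tangeretin. Its genes were taken from the array by their systematic name: a probe whose name starts with YBR was a member unless it measured a ribosomal protein gene (RPL or RPS names) or 1 of 39 other named genes of the arm. This gave 267 genes of the 313 YBR probes and of the 6958 probes on the array that were not controls. Of the 267 genes, 254 gave a signal above the scanner's detection limit on at least 3 arrays and entered the fit, which held 6428 genes in all. The arm was chosen on measured values: chromosome II had stood out in the comparison of the strains in these same arrays. The differences between strains are therefore given as a description, with no test, and the responses to tangeretin, which did not choose the genes, were tested.

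The 12 arrays form 4 groups of 3. The WT strain is YCL1071 and the mutant is YCL1098, in which kanMX4 replaces SGS1. Both strains are MATα with the alleles his3Δ1, leu2Δ0, met15Δ0 and ura3Δ0 and with TRP1 replaced by HPH, and both carry the plasmid pRS414-GAL1-HO-TRP1, in which the galactose promoter drives the HO endonuclease gene and TRP1 restores growth without tryptophan. Each strain was grown in medium lacking tryptophan at 30 °C for 4 h with 0.2% DMSO, either alone (control) or with 30 µM tangeretin. The labels do not say that the 3 arrays of a group come from separate cultures, and the file headers give them a single sample number, so the p-values may measure technical spread only. Each strain is 1 line, so what is described as a difference between sgs1Δ and WT is a difference between these lines, and the deletion cannot be told apart from any other difference between them.

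In a systematic yeast gene name the second letter gives the chromosome (B for the second one), the third the arm (L or R), the number counts genes outward from the centromere, and W or C gives the strand. The genes of an arm share a chromosome and not a function or a common regulator. DNA was not measured on these arrays, so the number of copies of the chromosome in either strain was not tested. Sgs1 is the RecQ-family DNA helicase of budding yeast, which acts in recombination and in the stability of chromosomes. Tangeretin is a polymethoxylated flavone found in citrus peel. A OneArray slide carries long oligonucleotide probes, and the fluorescence of labelled cDNA bound to a probe is its intensity. RNA was taken from whole cultures, so a change in the share of cells and a change in the RNA per cell cannot be told apart.

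The strain labels were checked first. The raw intensity of SGS1 was 108 to 169 on the 6 WT arrays, and on the 6 sgs1Δ arrays it was 4 to 7 and not detected. The α-cell pheromone gene MF(ALPHA)1 read 1036 to 1365 in WT and 19151 to 34726 in sgs1Δ. All 8 mating type markers, the 4 of α cells and the 4 of a cells (MFA1, MFA2, STE2 and BAR1), were detected on all 12 arrays and had higher raw intensity on every sgs1Δ array than on any WT array. URA3 was detected on 1 array, and MET17, which met15Δ0 removes, read 8 to 37. LEU2, which leu2Δ0 removes, read 28 to 55 and was detected on all 12 arrays, although both strains are given as lacking it. The source of this low signal was not tested. The arrays differed in brightness: the median raw intensity was 530 to 814 in WT control, 780 to 956 in WT with tangeretin, 928 to 1344 in sgs1Δ control and 1367.5 to 1530 in sgs1Δ with tangeretin. Brightness thus moved with both strain and tangeretin. The raw values of the mating type markers carry it, so their order alone is not read as a difference in RNA level. Values below are log2 intensities after quantile normalization, which gives every array the same distribution of values, and a strain difference is sgs1Δ minus WT. On this scale STE2 differed by 0.27 in control medium and 0.75 under tangeretin, and MFA1 by 1.22 and 1.48. The α-cell marker MF(ALPHA)2 differed by more, 2.45 and 3.64. The other markers are not given on this scale.

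Genes of the right arm were higher in sgs1Δ than in WT as a body. The median strain difference over the 254 genes was 0.72 in control medium, or 1.64-fold, and 0.69 under tangeretin, or 1.61-fold. Over all 6428 genes the medians were -0.03 and -0.05. The shift stood apart on each single array. After each gene was centred on its mean over the 12 arrays, the median of the arm lay below that of the other chromosomes by -0.41, -0.40 and -0.39 on the WT control arrays and by -0.36, -0.37 and -0.33 on the WT tangeretin arrays. It lay above by 0.33, 0.36 and 0.36 on the sgs1Δ control arrays and by 0.38, 0.39 and 0.39 on the sgs1Δ tangeretin arrays. The 2 strains did not overlap, and the SD within a group was 0.0066 to 0.0184 (n = 3). This comparison chose the arm, and the SD may be technical spread only. The distance between the strains is therefore not weighed against it. Tangeretin moved the group means of this measure from -0.40 to -0.35 in WT and from 0.35 to 0.39 in sgs1Δ.

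The left arm of the same chromosome had like medians, 0.71 in control medium and 0.62 under tangeretin (118 genes). The 45 measured YBR genes that the rule left out had 0.69 and 0.61. The 30 arms of the 15 other chromosomes had medians between -0.16 and 0.05 in control medium and between -0.16 and 0.0033 under tangeretin. Both arms of chromosome II lay far outside these ranges in both media. Set against the median of the other chromosomes, the right arm was 0.77 higher (1.70-fold) in control medium and 0.76 higher (1.69-fold) under tangeretin. This distance was also taken under 5 alternatives: other scalings of the arrays, no offset, and the authors' own log2 values. Across them it was 0.77 to 0.82 in control medium and 0.76 to 0.83 under tangeretin.

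**Figure D1:**
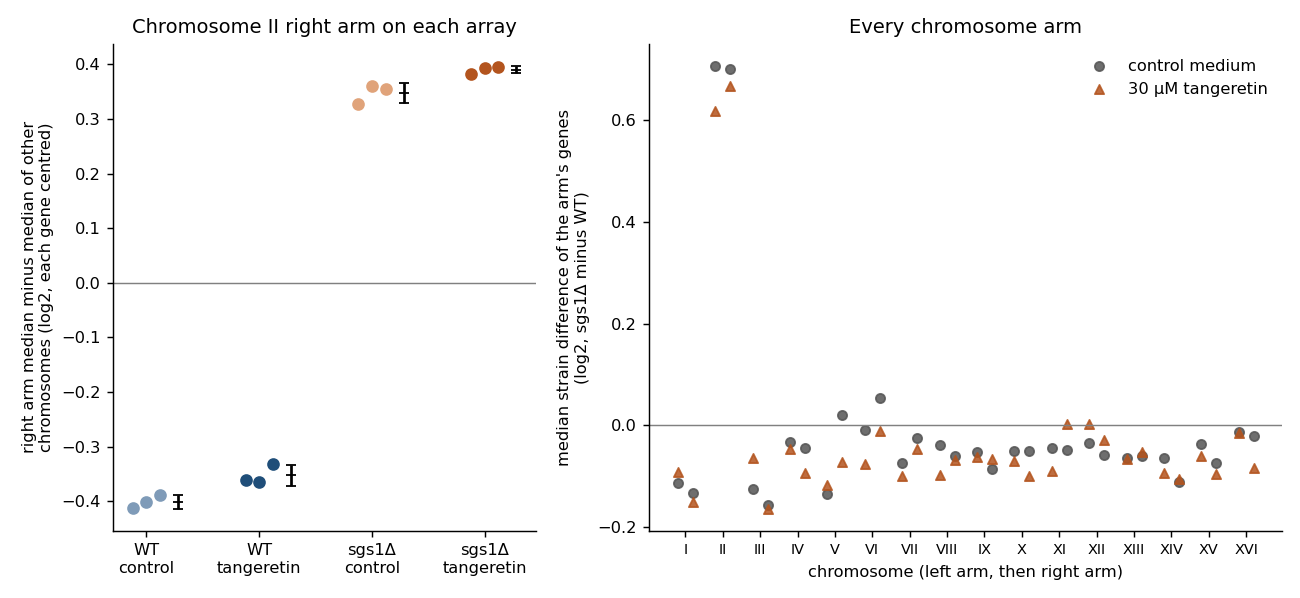
Left: the median over the right arm genes minus the median over genes of the other chromosomes, in log2 with each gene centred on its mean, for each array (points), with group mean and SD (n = 3, black). Right: the median strain difference of the genes of every chromosome arm in control medium (circles) and under tangeretin (triangles). The 6 sgs1Δ arrays lie at 0.33 to 0.39 and the 6 WT arrays at -0.41 to -0.33, and the 2 arms of chromosome II stand alone.

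The shift was shared by most genes of the arm, in unequal amounts. In control medium 238 of the 254 genes lay above 0, 52 were at least 2-fold higher, and the differences ran from -0.68 to 2.20 with an interquartile range of 0.53. Under tangeretin 240 lay above 0 and 58 were at least 2-fold higher. Of all 6428 genes, 47.1% lay above 0 and 205 were at least 2-fold higher in control medium. Under tangeretin these figures were 45.2% and 223. The arm's values were about as widely spread as those of other genes: the interquartile range of the 5830 genes on other chromosomes was also 0.53 in control medium, and under tangeretin it was 0.50 against 0.52 for the arm. In both media together 234 of the 254 genes (92.1%) lay above 0, against 32.3% of the genes on other chromosomes. Another 10 genes lay below 0 in both media, and 10 changed sign.

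All 6 sgs1Δ arrays lay above all 6 WT arrays for 195 of the 254 genes (76.8%). The same held for 12.4% of all genes. At an adjusted p under 0.05 in limma, 212 genes of the arm were higher and 5 lower in control medium, where 21.2% of all genes were higher and 27.4% lower. Under tangeretin 211 were higher and 4 lower, where 20.4% of all genes were higher and 25.8% lower. With the brightness of the array as a covariate, 146 genes of the arm were called higher and 1 lower in control medium. Under tangeretin these counts were 155 and 1. Calls over all genes fell as well with this covariate, as given in the closing section. All these calls use the comparison that chose the arm, so the counts are a description and nothing is read from them. The arrays of the 2 media are separate, and the size of a gene's difference in one went with that in the other: Pearson's r over the 254 genes was 0.79 and Spearman's rho 0.78. Over the genes of other chromosomes r was 0.83. The genes within each set share the arrays and their normalization.

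**Figure D2:**
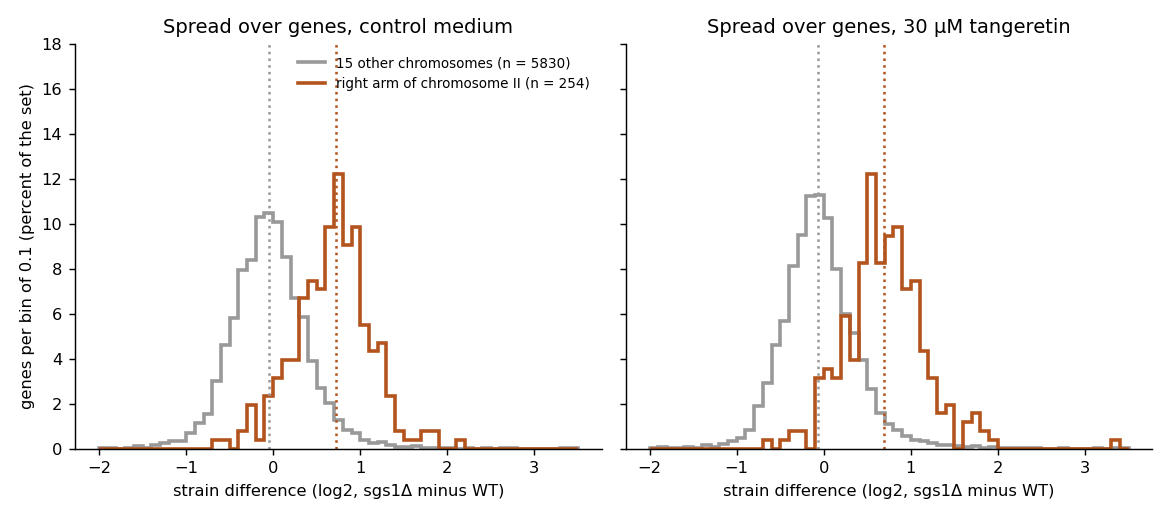
The share of genes (percent) in bins of 0.1 of the strain difference (log2, sgs1Δ minus WT), for the 254 right arm genes and for the 5830 genes of the other chromosomes, of which 18 lie beyond the axis in each medium. Dotted lines mark the medians, 0.72 and -0.05 in control medium and 0.69 and -0.07 under tangeretin, and the 2 distributions have like widths.

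The difference was set against how bright a gene was. All 6428 genes were split into 4 equal classes by their mean log2 level over the arrays. The 43 arm genes of the dimmest class had a median of 0.41 in control medium and 0.54 under tangeretin. In the next class, with 50 genes, the medians were 0.79 and 0.81, and in the third, with 84 genes, 0.73 and 0.72. The brightest class, with 77 genes, had 0.70 and 0.60. The dimmest genes thus showed the smallest median difference in both media. The added offset of 50 compresses differences of dim probes. The scanner's ceiling caps bright ones, and 2 genes of the arm reached it on any array. The 15 members absent from the RefSeq annotation were also dim, with a median level of 7.10, and had median differences of 0.01 and 0.20. The part of any of these in the pattern was not tested. In the same classes the genes of other chromosomes had medians between -0.11 and -0.0030 in control medium.

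The shift ran along the whole arm. In successive runs of 30 ORF numbers from the centromere outward, the medians in control medium were 0.74, 0.79, 0.70, 0.75, 0.76 and 0.74 for the inner 6 runs and 0.67, 0.63, 0.66 and 0.58 for the next 4, up to ORF number 300. Under tangeretin the inner 6 runs had 0.78, 0.68, 0.71, 0.71, 0.83 and 0.59 and the next 4 had 0.67, 0.73, 0.53 and 0.59. Every run lay well above the range of the other chromosomes' arms. In control medium the outer 4 runs were all below the inner 6. Under tangeretin the 2 sets overlapped, and no test of a trend was made. Adjacent genes did not resemble each other in the size of the difference: the correlation of the strain difference between adjacent measured genes was -0.04 in control medium and 0.03 under tangeretin over 253 pairs. Genes on the W strand (113) had medians of 0.74 and 0.65 and genes on the C strand (141) 0.69 and 0.70.

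**Figure D3:**
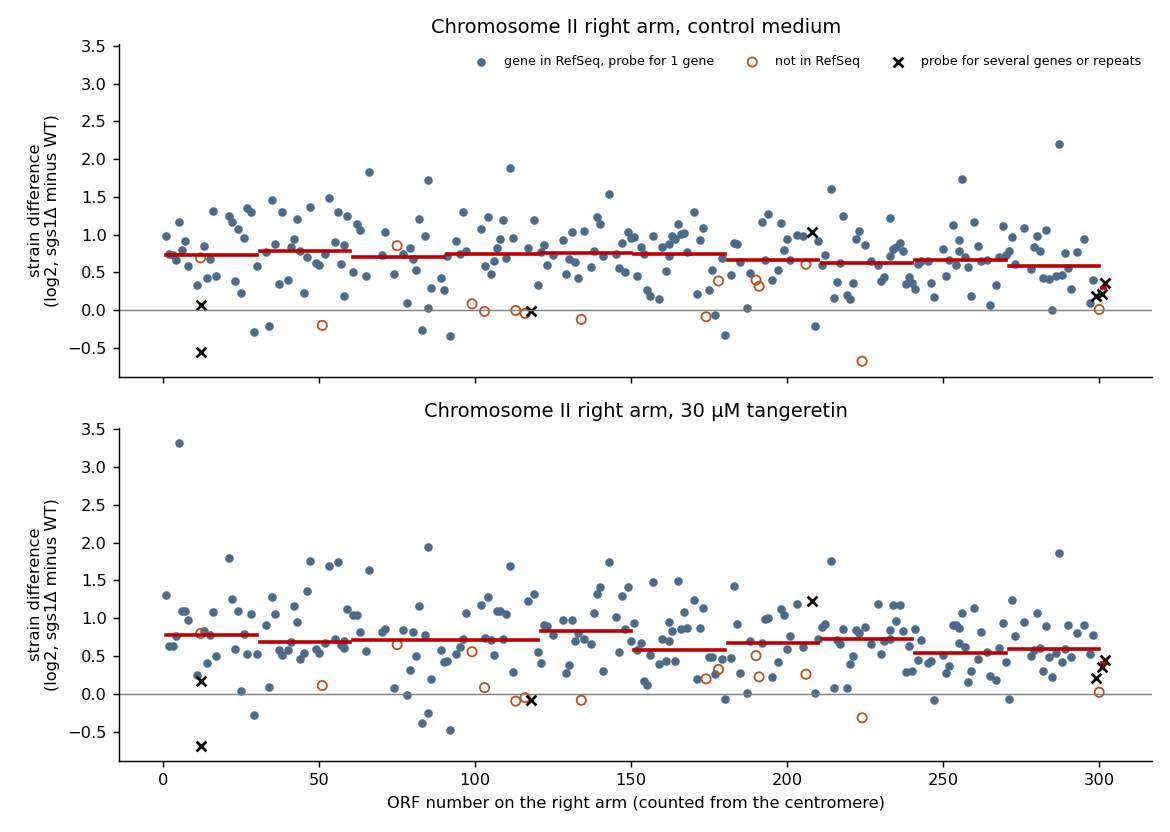
The strain difference (log2, sgs1Δ minus WT) of each measured right arm gene against its ORF number, in control medium (top) and under tangeretin (bottom), with red lines at the medians of runs of 30 ORF numbers. Most points lie above 0 from end to end, with medians of 0.58 to 0.79 in control medium up to ORF number 300, and open circles and crosses (ORFs missing from the RefSeq annotation, probes shared by several genes) make up many of the points near 0.

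Next to the centromere, NTH2, a trehalase, was 1.97-fold higher in sgs1Δ in control medium and 2.47-fold higher under tangeretin. RER2, a prenyltransferase that makes the dolichol chain, was 1.67-fold and 1.54-fold higher. COQ1, which makes the side chain of ubiquinone, was 1.67-fold and 1.56-fold higher, and GPI18, a mannosyltransferase of GPI anchor synthesis, 1.59-fold and 1.70-fold. RER2, COQ1 and GPI18 lay close to the median of the arm, and NTH2 lay above it in both media.

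At the other end lies a maltose locus, followed by subtelomeric families. MAL31, the maltose permease, had log2 intensities of 8.14, 8.04 and 8.05 in WT control and 8.41, 8.59 and 8.43 in sgs1Δ control, and of 8.05, 7.98 and 7.92 in WT with tangeretin and 8.75, 8.64 and 8.89 in sgs1Δ with tangeretin. It was 1.32-fold and 1.71-fold higher. MAL33, which encodes the activator of the locus, was 1.07-fold higher in control medium, where the strains overlapped, and 1.44-fold under tangeretin. The probe for the maltase MAL32 also matches MAL12 of chromosome VII and was detected on 4 of 12 arrays at raw intensities of 3 to 32, so it gives no usable comparison. The outermost 2 probes were also shared with genes elsewhere. The one for DAN3 (now PAU24) and YGR294W differed by 0.22 and 0.35 between strains, and the one for the COS genes by 0.36 and 0.45. These signals cannot be assigned to a single gene. YBR300C, a dubious ORF between MAL32 and these outermost probes, stayed within 0.02 of 0 in both media.

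ORFs for which the annotation holds no gene had smaller medians. RefSeq R64 lists 232 of the measured genes with a probe for a single gene, and their medians were 0.74 and 0.72, with 221 above 0 in both media. The 15 members absent from RefSeq had medians of 0.01 and 0.20, with 8 above 0 in both media. They were dim, with a median level of 7.10 against 11.08. The 7 probes for several genes or repeats had medians of 0.19 and 0.21. One of these stands apart: DUR1,2, urea amidolyase, appears in the file under a pair of names for what is 1 gene, and it was 2.04-fold and 2.34-fold higher. Of the 10 members below 0 in both media, 6 are of these kinds, namely YBR113W, YBR116C, YBR134W, YBR224W, the Ty element probe YBR012W-A and TEF1/TEF2. The other 4 are TEC1, CDS1, PHO3 and DTR1.

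The shift appeared in the median of every role that was listed, though not in every gene. Part of the arm's genes were sorted into 8 lists by textbook role, which hold 160 genes, 158 of them measured. The lists' medians were 0.59 to 0.93 in control medium and 0.57 to 0.98 under tangeretin, against -0.03 and -0.05 over all genes. The highest median belonged to the list of ubiquitin, proteasome, autophagy and vacuole genes, with 0.93 and 0.98 and all 13 members above 0 in both media. The lowest in control medium belonged to chromatin and transcription, with 0.59 and 0.58 and 25 of 26 members above 0 in both media. All 8 medians lay above every arm of the other chromosomes. Within a list, genes were ordered by the mean of both media.

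In the protein turnover list, UBC4, a ubiquitin-conjugating enzyme for short-lived and abnormal proteins, had log2 intensities of 13.42, 13.31 and 13.31 in WT control and 14.45, 14.83 and 14.37 in sgs1Δ control. Under tangeretin it had 13.57, 13.49 and 13.57 in WT and 14.99, 14.40 and 14.71 in sgs1Δ. The strains did not overlap, and the gene was 2.31-fold and 2.23-fold higher in sgs1Δ. UBS1, a suppressor of ubiquitin-conjugation defects and the highest of the list by the mean of both media, was 2.20-fold and 2.82-fold higher. ATG14, a subunit of the lipid kinase complex that starts autophagy, sat at the median of the list with 1.91-fold and 1.98-fold. The lowest by the same mean was UBP14, a protease that disassembles free ubiquitin chains. It was 1.14-fold higher in control medium, where the strains overlapped, and 1.52-fold under tangeretin.

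The 12 measured genes of the cell cycle, kinetochore and polarity list were all above 0 in both media, with medians of 0.83 and 0.77. CDC28, the cyclin-dependent kinase that drives the cell cycle, had log2 intensities of 11.69, 11.81 and 11.62 in WT control and 12.70, 12.48 and 12.47 in sgs1Δ control. Under tangeretin it had 11.60, 11.56 and 11.57 in WT and 12.37, 12.37 and 12.17 in sgs1Δ. It lay at the median of its list, 1.79-fold and 1.66-fold higher, with little spread within groups. CMD1, calmodulin, was 2.30-fold and 1.65-fold higher, and AKL1, a kinase of actin patches and endocytosis, 2.37-fold and 2.18-fold. SLI15, the partner that holds the Aurora kinase at kinetochores, was the lowest of the list by the mean of both media, at 1.14-fold and 1.43-fold, although SHE3, which transports mRNA into the bud, was lower under tangeretin. PCH2, the meiotic checkpoint ATPase, was detected on too few arrays to be measured.

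Among chromatin and transcription genes the members ranged widely. NRG2, a repressor of glucose-repressed genes, had log2 intensities of 8.91, 9.06 and 9.16 in WT control and 11.07, 10.75 and 10.82 in sgs1Δ control. Under tangeretin it had 8.82, 9.002 and 8.98 in WT and 10.55, 10.72 and 10.45 in sgs1Δ, so that it was 3.57-fold and 3.12-fold higher. ERT1, a regulator of genes for growth on ethanol, held the middle of the list with 1.36-fold and 1.56-fold. REB1, a general regulatory factor that keeps promoters free of nucleosomes, was 1.55-fold and 1.51-fold higher on a dim probe, detected on 10 of 12 arrays at raw intensities of 12 to 199. TEC1, an activator of filamentous growth genes and of the Ty1 element, ran the other way. Its log2 intensities were 12.004, 11.97 and 11.80 in WT control and 11.80, 11.57 and 11.63 in sgs1Δ control, with 11.81, 11.71 and 11.88 in WT and 11.44, 11.28 and 11.52 in sgs1Δ under tangeretin. The strain difference of TEC1 was -0.26 ± 0.10 in control medium and -0.39 ± 0.10 under tangeretin (SE, n = 3 arrays per group), and it was the only member of its list below 0 in both media.

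Mitochondrial genes (24 measured) had medians of 0.70 and 0.57, with 23 above 0 in both media. FMP23, a mitochondrial protein, had log2 intensities of 10.04, 10.01 and 9.93 in WT control and 11.43, 11.35 and 11.29 in sgs1Δ control, and was 2.58-fold and 3.39-fold higher. TIM12, a subunit of the inner membrane import machinery, was 1.65-fold and 1.35-fold higher and stood at the middle of the list. AAC3, the ADP/ATP carrier used without oxygen, did not separate the strains, with differences of 0.03 ± 0.14 and -0.25 ± 0.14. The 33 genes of secretion, glycosylation, lipids and cell wall had medians of 0.68 and 0.71, and 31 were above 0 in both media. YPC1, a ceramidase, was 1.85-fold and 2.70-fold higher, and MNN2, a mannosyltransferase of the Golgi, 1.60-fold and 1.72-fold. CDS1, which makes CDP-diacylglycerol for phospholipid synthesis, was lower in sgs1Δ by like amounts in both media. Its log2 intensities were 13.98, 14.01 and 13.72 in WT control and 13.72, 13.43 and 13.69 in sgs1Δ control, with 13.69, 13.54 and 13.67 in WT and 13.42, 13.29 and 13.32 in sgs1Δ under tangeretin. The differences of CDS1 were -0.29 ± 0.10 in each medium, and in control medium the highest sgs1Δ array matched the lowest WT array.

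The 20 genes of RNA processing and translation had medians of 0.71 and 0.60, and 16 were above 0 in both media, the lowest share of the 8 lists. SUP45, the release factor that ends translation at stop codons, had log2 intensities of 9.81, 9.50 and 10.27 in WT control and 10.80, 11.94 and 11.47 in sgs1Δ control. Under tangeretin it had 10.31, 10.69 and 10.62 in WT and 12.07, 12.27 and 12.49 in sgs1Δ. The strains were apart by 2.92-fold and 3.34-fold, and the spread within the control groups was wide. GRS1, glycyl-tRNA synthetase, was 1.70-fold and 1.32-fold higher. HMT1, the main arginine methyltransferase of RNA-binding proteins, lay at -0.20 and 0.08 with overlapping strains. TEF1/TEF2, whose shared probe measures both genes for translation elongation factor 1α, read above 65000 in raw intensity on 10 of 12 arrays, which is at the scanner's ceiling. Its differences of -0.02 and -0.08 are therefore not a measure of either gene. ECM33, a cell wall protein, was at the ceiling on 3 sgs1Δ arrays, which lowers its measured difference.

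Transporters (9 genes) had medians of 0.77 and 0.91, with 8 above 0 in both media. FUR4, the uracil permease, was 2.38-fold and 3.49-fold higher, with log2 intensities of 11.96, 11.19 and 10.68 that were spread widely in sgs1Δ with tangeretin. FLR1, an exporter of several drugs, was 1.498-fold and 1.97-fold higher, at the middle of the list. DTR1, the dityrosine exporter of spore wall assembly, was the exception, at -0.33 and -0.07. The 21 metabolic enzymes had medians of 0.84 and 0.86, and 19 were above 0 in both media. YSA1, an ADP-ribose hydrolase, had log2 intensities of 10.38, 10.40 and 10.90 in WT control and 12.15, 12.66 and 12.53 in sgs1Δ control, 3.70-fold apart, and was 3.23-fold higher under tangeretin. TYR1, of tyrosine synthesis, held the middle with 2.02-fold and 1.82-fold. PHO3, an acid phosphatase expressed in the presence of phosphate, was the lowest enzyme. Its log2 intensities were 10.60, 10.80 and 10.93 in WT control and 10.28, 10.56 and 10.45 in sgs1Δ control, with 10.69, 10.86 and 11.01 in WT and 10.07, 10.61 and 10.45 in sgs1Δ under tangeretin. It was 0.79 times the WT level in control medium and 0.72 times under tangeretin, and in each medium all 3 sgs1Δ arrays lay below all 3 WT arrays.

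**Figure D4:**
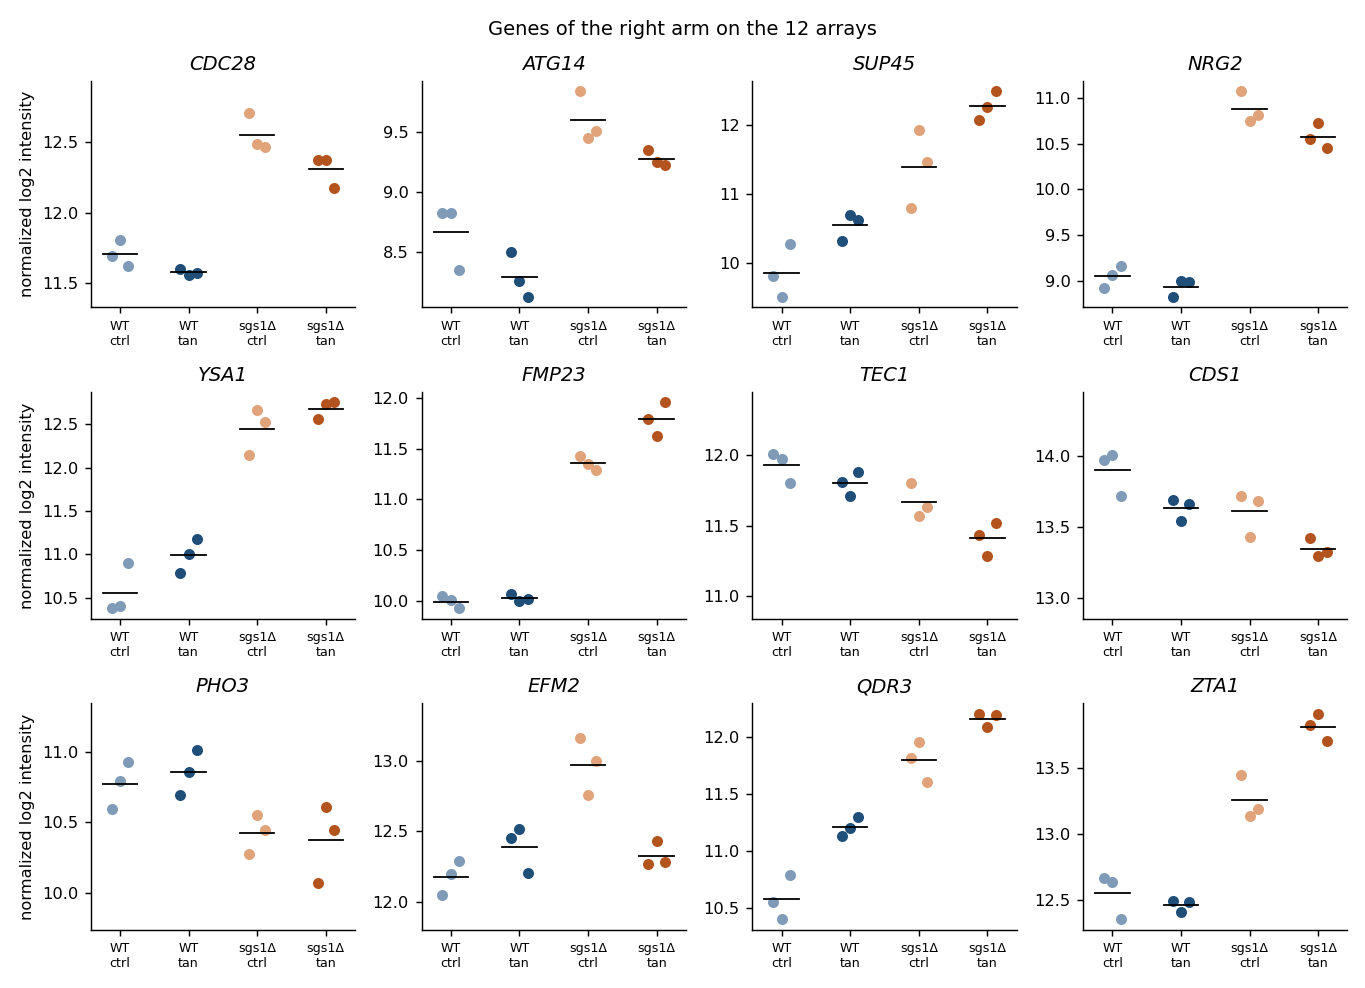
Normalized log2 intensity of 12 genes of the right arm on each of the 12 arrays (points), with group means (bars); each panel has its own axis. CDC28, ATG14, SUP45, NRG2, YSA1 and FMP23 separate the strains upward in sgs1Δ, TEC1, CDS1 and PHO3 lie lower in sgs1Δ, and EFM2, QDR3 and ZTA1 are among the genes called for tangeretin.

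The genes farthest above the median included several of unknown function. YBR287W, a membrane protein without a known role, led the genes detected on all 12 arrays by the mean of both media. Its log2 intensities were 7.44, 7.59 and 7.95 in WT control and 9.61, 10.19 and 9.77 in sgs1Δ control, which is 4.58-fold. Under tangeretin they were 8.33, 8.51 and 8.51 in WT and 9.93, 10.43 and 10.57 in sgs1Δ, which is 3.64-fold. Next in order of the mean of both media stood YBR085C-A, at 3.31-fold and 3.84-fold, YSA1 and NRG2. SDS24, which takes part in cell separation, was 3.04-fold and 3.38-fold higher, and the uncharacterized YBR053C 2.81-fold and 3.24-fold.

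The single highest value under tangeretin rests on 1 spot. RCR1, an endoplasmic reticulum protein involved in chitin deposition, read 1409, 1386 and 1626 in raw intensity in WT control and 1491, 1615 and 10 in WT with tangeretin. In sgs1Δ it read 4457, 7793 and 4072 in control medium and 7219, 7985 and 8449 under tangeretin. The value of 10 was not detected, and the other 5 WT arrays lay close together. With all arrays RCR1 was 2.25-fold higher in sgs1Δ in control medium and 10.01-fold higher under tangeretin. Without that array the tangeretin value was 3.21-fold, and the next highest gene under tangeretin was YBR085C-A at 1.94 in log2.

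At the other end, the Ty element probe YBR012W-A, which matches many copies of the repeat across the genome, had the lowest mean of both media, with differences of -0.55 and -0.69. YBR224W, an ORF absent from RefSeq with raw intensities of 40 to 130, had -0.68 and -0.32. YBR134W, also absent from RefSeq, lay at -0.12 and -0.09.

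Dim genes add little to these counts. Of the 254 measured genes, 232 were detected on all 12 arrays, and the other 22 had medians of 0.40 and 0.51. In 11 genes no array of at least 1 group was detected. For COS111, undetected in WT control and present on all 6 sgs1Δ arrays, the difference in control medium was at least 1.96-fold, taken against the lowest detected signal of the WT arrays. For VID24, which targets gluconeogenic enzymes for degradation, the undetected readings were not below that signal. Its bound of 1.39-fold is therefore just the measured difference. The medians of the arm were 0.72 and 0.69 with these 11 genes at their bounds. For most of the 11 the bound equals the measured difference, so these medians could hardly move and nothing is read from them. The 13 members that did not enter the fit, among them PCH2, LDH1, ECM8 and SLM6, have no comparison here.

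Few genes of the arm were called for tangeretin in either strain, and how many changed without being called is not known. The median response of the 254 genes was -0.01 in WT and 0.01 in sgs1Δ, against -0.03 and -0.02 over all genes. In WT 5 genes rose (1.97%) and 1 fell (0.394%) at an adjusted p under 0.05, while 1.96% of all genes rose and 1.63% fell. In sgs1Δ 3 rose (1.18%) and 4 fell (1.57%), while 0.731% of all genes rose and 0.731% fell. No gene was called in both strains. With 75th percentile scaling 6 rose and 0 fell in WT, and 4 rose and 2 fell in sgs1Δ. Calls over all genes were then 194 in WT and 73 in sgs1Δ. With cyclic loess 6 rose and 1 fell in WT, and 5 rose and 3 fell in sgs1Δ, with 219 and 101 calls over all genes. At an unadjusted p under 0.05 in limma there were 67 of the 254 genes in WT and 71 in sgs1Δ. Most of these did not survive the adjustment over 6428 genes. The share of all genes at this threshold is not given, so nothing particular to the arm is read from these 2 counts. The calls rested on single arrays: without WT control 1, WT control 2, WT tangeretin 2 or WT tangeretin 3 no gene was called in WT, and without WT control 3 there were 62. In sgs1Δ the count was 0 without sgs1Δ tangeretin 1 and 43 without sgs1Δ control 2. Calls over all genes in these fits are not set beside these counts, so nothing particular to the arm is read from them. With the brightness of the array as a covariate no gene was called in WT and 1, ZTA1, in sgs1Δ.

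In WT the genes that rose were of mixed roles. QDR3, an exporter of drugs and polyamines, had log2 intensities of 10.55, 10.40 and 10.78 in WT control and 11.13, 11.20 and 11.29 in WT with tangeretin. It rose by 0.63 ± 0.11, or 1.55-fold (limma adjusted p = 0.0116), with no overlap between the groups. Its response in sgs1Δ was 0.37 ± 0.11 (limma adjusted p = 0.0956). RIB5, riboflavin synthase, went from 8.91, 9.17 and 9.62 to 9.84, 9.90 and 10.14, a rise of 0.73 ± 0.16 (limma adjusted p = 0.03), and its response in sgs1Δ was 0.06 ± 0.16. YBR287W, the gene with the largest mean strain difference among those detected on all arrays, also rose, by 0.79 ± 0.18 (limma adjusted p = 0.0364). The other two that rose were YBR096W, an uncharacterized protein, by 0.50 ± 0.13, and PFF1, a vacuolar membrane protease, by 0.36 ± 0.08. ICS2, of unknown function, was the gene that fell. It went from 9.86, 9.93 and 9.99 to 9.56, 9.45 and 9.63, a change of -0.38 ± 0.09 (limma adjusted p = 0.0377), while its response in sgs1Δ was 0.12 ± 0.09.

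In sgs1Δ other genes passed. TRM7, which methylates tRNA anticodon loops, had log2 intensities of 9.31, 9.85 and 9.64 in sgs1Δ control and 10.26, 10.34 and 10.09 with tangeretin, a rise of 0.63 ± 0.12 (limma adjusted p = 0.0211). ZTA1, a quinone reductase of the zeta-crystallin family, went from 13.44, 13.13 and 13.19 to 13.82, 13.91 and 13.70, a rise of 0.56 ± 0.11 (limma adjusted p = 0.0251). FMP23 rose by 0.43 ± 0.09 (limma adjusted p = 0.0396). In all 3 genes the arrays of the sgs1Δ groups did not overlap, and the response in WT was between -0.09 and 0.10.

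The 4 genes that fell in sgs1Δ were EFM2, ENP1, OPY1 and BEM1. ENP1, needed to make the small ribosomal subunit, went from 12.52, 12.33 and 12.32 to 11.92, 11.92 and 11.89, a change of -0.48 ± 0.08 (limma adjusted p = 0.0137). OPY1, a regulator of phosphoinositide kinase signalling, fell by 0.50 on the log2 scale (limma adjusted p = 0.0474). BEM1, the scaffold that gathers Cdc42 and its activator at the bud site, fell by 0.45 (limma adjusted p = 0.0451). In WT, OPY1, ENP1 and BEM1 had values of -0.30, -0.22 and -0.10, none of which passed the test, and EFM2 had 0.21.

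The response to tangeretin was called different between the strains for 1 gene of the arm (0.394%), against 1.24% of all genes. EFM2, a lysine methyltransferase that modifies translation elongation factor 2, had log2 intensities of 12.05, 12.20 and 12.29 in WT control and 12.45, 12.51 and 12.21 in WT with tangeretin. In sgs1Δ it had 13.16, 12.76 and 13.00 in control medium and 12.27, 12.43 and 12.29 with tangeretin. Its response was 0.21 ± 0.12 in WT and -0.64 ± 0.12 in sgs1Δ (limma adjusted p = 0.0201 for the latter). The difference of the responses was -0.85 ± 0.16 (limma adjusted p = 0.0278), while 0.622% of all genes were called lower in this comparison. EFM2 was thus 1.73-fold higher in sgs1Δ in control medium and 0.96 times the WT level under tangeretin, so that under tangeretin it fell outside the shift of its arm. The call was lost in 8 of the 12 fits that each leave out 1 array, and over all 12 such fits the difference stayed between -0.96 and -0.76.

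Other large differences of response did not pass the test. YBR027C, a dubious ORF on a dim probe, had -0.83 ± 0.30 (limma adjusted p = 0.202) and CHS2, the chitin synthase of the septum, -0.78 ± 0.29 (limma adjusted p = 0.206). On the positive side ZTA1 had 0.65 ± 0.15 (limma adjusted p = 0.0556) and ROT2, a subunit of glucosidase II in the endoplasmic reticulum, 0.58 ± 0.17. RCR1 had 2.15 with the undetected spot and 0.51 without that array, and neither passed. At an unadjusted p under 0.05 in limma there were 43 genes of the arm. The share of all genes at this threshold is not given, so nothing particular to the arm is read from this count.

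**Figure D5:**
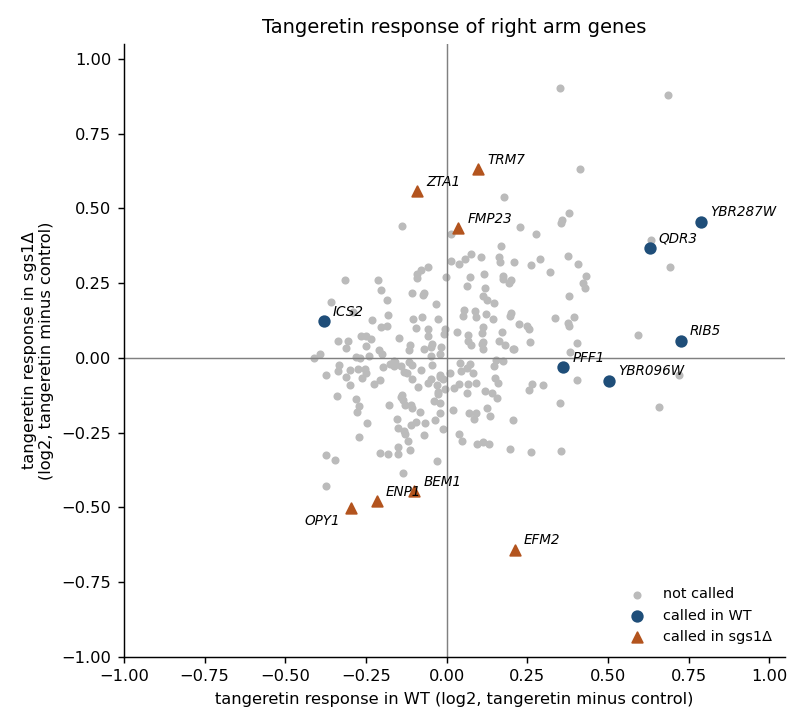
The response to tangeretin (log2, tangeretin minus control) in WT (horizontal) and in sgs1Δ (vertical) for right arm genes, with the 6 genes called in WT as blue circles and the 7 called in sgs1Δ as orange triangles; RCR1, at -1.94 in WT, is not drawn. Most genes lie near 0 in both strains, no gene is called in both, and EFM2 lies alone at 0.21 in WT and -0.64 in sgs1Δ.

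By list, tangeretin called few members. In WT the calls in the 8 lists were QDR3 among transporters and RIB5 among metabolic enzymes. In sgs1Δ they were FMP23 among mitochondrial genes, TRM7, EFM2 and ENP1 among RNA processing and translation genes, BEM1 in the cell cycle list and ZTA1 among metabolic enzymes. The lists for chromatin and transcription, for secretion and lipids, and for protein turnover held no called member in either strain. The largest response in sgs1Δ that did not pass was that of FUR4, at 0.90 (limma adjusted p = 0.0956), followed by SUP45 at 0.88 (limma adjusted p = 0.079), both with wide spread between arrays.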

How the data were processed

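Yeast RNA was measured with 12 Phalanx OneArray slides of 1 colour. The deposited raw table gives, per the file headers, a raw intensity for each spot and array, and a scanner flag (unit other), whose value 0 was read as detected. The 2158 empty spots had medians of 0 to 1, so background had been taken off. The deposited value table holds the authors' normalized log2 values, and the sources used here do not give the method. Each column had a median of 10.00, tracked that array's own raw log2 intensities (r from 0.9993 to 0.9999) and served as an alternative.

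Spots of a probe were averaged, negative intensities set to 0, 50 added, arrays quantile normalized and log2 taken, with limma 3.58.1 in R 4.3.3. Probes detected on fewer than 3 arrays (301) and control spots were left out. The probe named YBR stood for each member, and the brightest probe for any other gene. RefSeq R64 gave names for 6330 probes. The 4 groups of 3 arrays were fitted together with lmFit and eBayes (8 residual and 13.68 total degrees of freedom) in 5 comparisons, with two-sided p-values adjusted by Benjamini-Hochberg over 6428 genes. Errors are SE of this fit unless named SD. The script was tested on simulated data. The number of arrays limits precision.

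The members, the 8 lists and the alternatives were chosen with earlier results of these data known. Genes named are the 8 highest and 8 lowest by the mean strain difference among genes detected on all arrays, the highest, median and lowest of each list, all called genes, the 3 largest changes each way where fewer than 5 were called, the first and last 4 by ORF number, and REB1, CDC28, CMD1, TEF2, UBC4, PHO3, EFM2, MAL31, MAL32 and MAL33. DUR1,2, COS111, VID24, SHE3 and ECM33, the sign of each ORF below 0, and the responses of FUR4 and SUP45 were added after their values were seen. Alternatives covered the offset, scaling, filters, the authors' values, the samples in the fit, replicate blocks, variance models, brightness and each array left out. The values of RCR1 without 1 array and the distances to the other chromosomes under other processing were alternatives chosen after seeing the data. A planned search of promoter sequences for motifs was not run, since no sequence was used here.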

Additional observations from a re-analysis of the deposited data

Results flagged for a closer look

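EFM2, the methyltransferase of elongation factor 2, was the 1 gene of the arm called in a test of the difference of responses between the strains. That is 0.394% of the arm, against 1.24% of all genes. The response of sgs1Δ minus that of WT was -0.85 ± 0.16 (SE, n = 3 arrays per group, limma adjusted p = 0.0278). All 3 sgs1Δ tangeretin arrays lay below all 3 sgs1Δ control arrays, while in WT the groups overlapped. Over the alternatives the difference ran from -0.99 to -0.76, and it did not pass in 11 of 26.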

How the results depend on the processing

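The upward shift of the arm kept its direction under every alternative that was run. Its medians in control medium and under tangeretin, in that order, were 0.7385 and 0.7271 with an offset of 16, 0.7526 and 0.7377 without an offset, 0.7372 and 0.7271 with 75th percentile scaling, 0.7535 and 0.7362 with cyclic loess, and 0.7713 and 0.7378 with a quantile target from genes off chromosome II. They were 0.7628 and 0.7473 on the authors' log2 values, 0.7327 and 0.7197 without the dimmest 25% of genes, 0.6879 and 0.6542 without the detection filter, and 0.6629 and 0.6364 with array brightness as a covariate. Leaving out 1 array gave 0.6917 to 0.7197 and 0.6545 to 0.6939.

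Counts of tangeretin calls moved far more. With only the compared groups in the fit, calls over all genes went from 231 to 55 in WT and from 94 to 35 in sgs1Δ. The counts below are for the arm alone, and nothing particular to the arm is read from them. In WT they were 1 with only the compared groups in the fit, 102 with array weights, 0 with brightness, and 0 to 62 without 1 array. In sgs1Δ they were 4 with an offset of 16, without an offset and on the authors' values, 2 with only the compared groups, 76 with array weights, 1 with brightness, and 0 to 43 without 1 array. For the difference of responses they were 0 without an offset and on the authors' values, 2 with trend and robust variance, 61 with array weights, 4 with brightness, and 0 to 11 without 1 array. A required log2 change of at least 1 left 0 tangeretin calls in all 3 comparisons, and 51 and 58 strain calls. Strain calls ran from 211 to 218 in control medium and from 204 to 219 under tangeretin without 1 array. With brightness they were 147 and 156, and over all genes 812 in place of 3127 and 1135 in place of 2973. None of the 14 called responses to tangeretin or differences of response changed sign, and each call was lost under at least 6 alternatives. The causes were not tested.

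The labels do not say what a replicate number shares, and not every same-numbered pair of arrays correlated, so the numbers were not taken as pairs. Deviations of same-numbered arrays correlated at -0.41 to 0.51, with 9 of 18 pairs over 0.1, and 4 of 12 arrays correlated best with their own number. With the replicate block there were 18 calls in WT and 3 for the difference of responses. The signal over background limits dim genes, whose differences the offset compresses.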
